A study of Mus musculus with 6 samples.

Results

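The genes described here are 37 cytosolic tRNA synthetase and ATF4 pathway genes, chosen by name: 19 cytosolic synthetases, 6 regulators (Atf4, Atf5, Ddit3, Trib3, Chac1 and Sesn2), 8 enzymes that make serine, glycine, asparagine, proline and folate-bound carbon units, and 4 amino acid transporters. Each of the 37 was found among the 53801 genes of the deposited count table, and each passed the filter on low counts. Aminoacyl-tRNA synthetases load each amino acid onto its tRNA, and a stress programme run by the transcription factor ATF4 is known to raise many of them together with genes that make and import amino acids. When eIF2 kinases sense a lack of amino acids, unfolded protein in the endoplasmic reticulum or other stress, general translation falls while the Atf4 mRNA is translated more, so that ATF4 activity is set largely above the level of its transcript.

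The RNA came from 3 libraries of Ythdf1 knockout cells and 3 libraries of wild-type cells. Both groups were stromal vascular fraction cells of mouse inguinal white fat, the mixed non-adipocyte cells that hold adipocyte progenitors, kept in culture and sequenced after 4 days of adipogenic induction. YTHDF1 is a cytoplasmic protein that binds mRNA carrying the m6A mark and is known to favour its translation. The labels call the mice Ythdf1 knockout and wild type and do not give the part of the gene removed, the strain, the age or the number of animals behind a library.

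Libraries held 17693082 to 20089138 counts in knockout and 16619605 to 17700068 in wild type, so that 3 counts were worth 0.149 to 0.181 CPM (counts scaled to library size). Ythdf1 itself was at 45.1, 42.8 and 43.5 CPM in knockout replicates 1 to 3 and at 63, 62.1 and 60.4 CPM in wild type, a fold of 0.709 (edgeR quasi-likelihood test, adjusted p = 0.00038), so most of its transcript count remained in the libraries labelled knockout. All 10 adipocyte markers were detected in every library and all 10 were called higher, with a summed level of 17085 to 23064 CPM in knockout and 3833 to 5911 CPM in wild type. Of 12 macrophage markers 9 were called higher (summed 302 to 816 against 96.7 to 173 CPM, the most in knockout replicate 3), as were 2 of 10 endothelial markers (34.1 to 42.7 against 26.9 to 33.5 CPM). Called lower were 7 of 10 progenitor and fibroblast markers (18237 to 19533 against 38779.6 to 42111 CPM), 7 of 7 myofibroblast markers (2079 to 2629 against 8473 to 10644 CPM) and 9 of 12 gut epithelium markers (25.1 to 29.6 against 52.6 to 62.7 CPM, with Cdx2 and Agr2 at 0 in all knockout libraries). None of 8 lymphocyte markers passed the filter (0.385 to 0.909 against 0.686 to 0.989 CPM), with 5 or 6 at 0 in each knockout library and 3 or 4 at 0 in each wild-type library. All of these sums but that of the lymphocyte markers were apart between the genotypes, and their part in the differences below was not tested. In such bulk RNA, fewer cells of a type and less RNA per cell cannot be told apart.

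The question was how the module's transcripts differed between knockout and wild type. They did not move as a block. Of the 37 genes, 5 were higher and 9 lower in knockout in edgeR's quasi-likelihood test at an adjusted p of 0.05, and 23 did not pass. That is 37.8% called, where 44.3% of the 14816 genes tested were called, 22.6% higher and 21.7% lower. The median log2 fold change (knockout over wild type) was -0.05 over the module and 0.01 over all genes tested, and 30 of the 37 members lay within 1.5-fold of wild type. In 16 members the knockout and wild-type libraries did not overlap (5 above, 11 below), where 55.2% of all genes tested did not overlap. The 7 beyond 1.5-fold were the stress genes Chac1 and Trib3, the transporters Slc1a5 and Slc7a5, and the biosynthetic genes Pycr1, Phgdh and Aldh18a1.

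**Figure D1:**
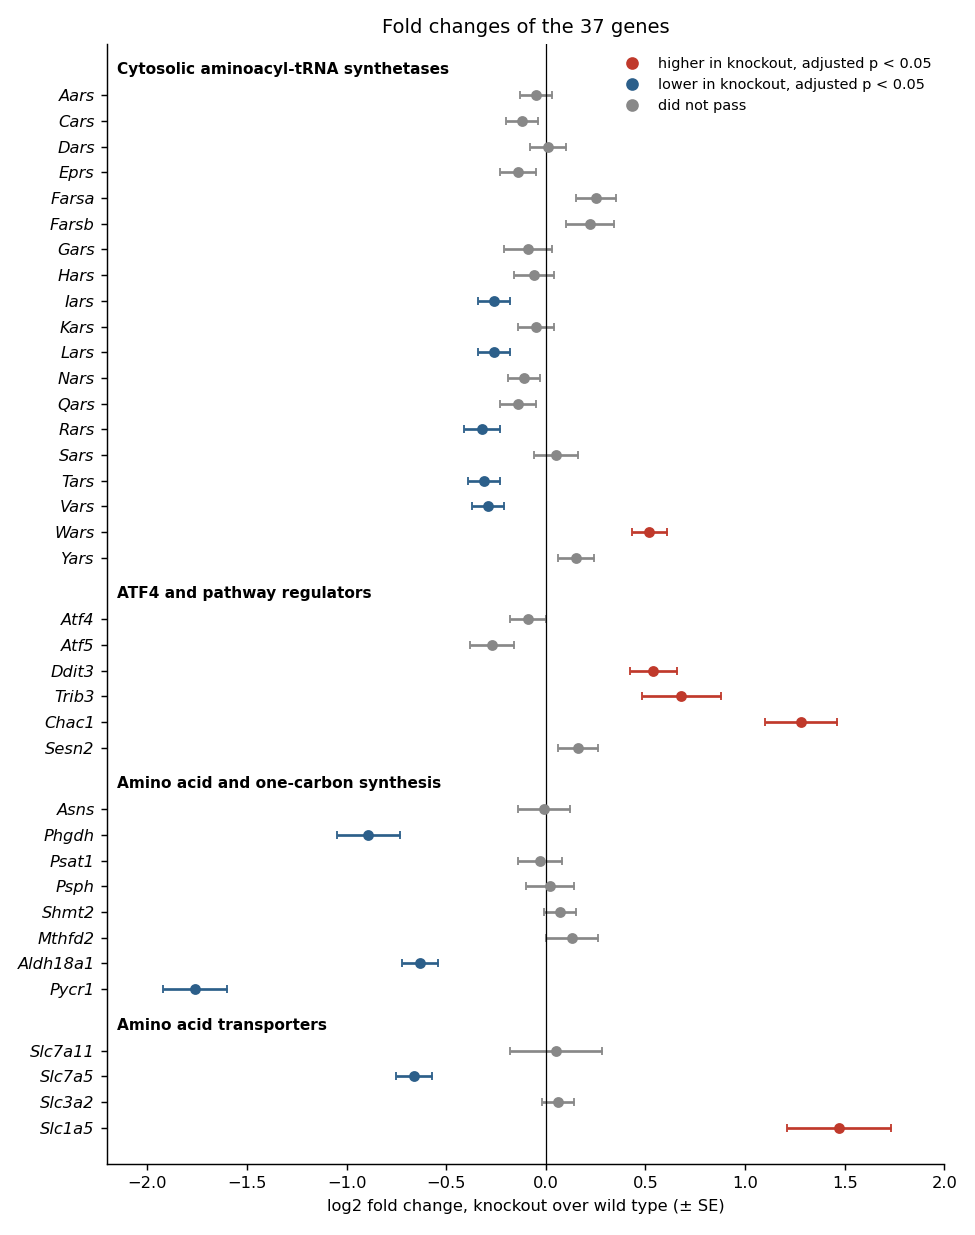
Log2 fold change of each of the 37 genes, knockout over wild type (horizontal axis, points with standard errors), grouped by role and coloured by call at an adjusted p of 0.05. Synthetases lie between -0.32 and 0.52, and the extremes are Pycr1 at -1.76 and Slc1a5 at 1.47.

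ATF4 acts with C/EBP partners at a composite DNA element whose core is TGATGNAA, and the promoters below are shown because genes that carry this core moved in different directions. RefSeq promoter windows on GRCm38.p6 (250 bases before to 50 after a transcript start) were available for 28 of the 37 members. The core, searched on both strands (TTNCATCA is its reverse complement), was found in 10 of these 28 (35.7%), and in 3.97% of all 32851 windows. The first share counts genes with the core in any of their windows and the second counts single windows, so they are unlike measures. The members were also picked as ATF4 pathway genes, and the difference between the shares was not tested. A match of these letters describes the sequence and does not show binding. Each line below gives a stretch of at most 30 bases around the core, 5′ to 3′ on the strand of its gene and upstream of the RefSeq start, with the core in capitals.
Chac1, chr2:119351038-119351067, plus strand: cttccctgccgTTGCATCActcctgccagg
Asns, chr6:7693214-7693243, minus strand: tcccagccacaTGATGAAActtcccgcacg
Pycr1, chr11:120643833-120643862, minus strand: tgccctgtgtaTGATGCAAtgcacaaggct
Gars, chr6:55037960-55037989, plus strand: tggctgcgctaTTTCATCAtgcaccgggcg
Tars, chr15:11399659-11399684, minus strand: caggagtcccgTTGCATCAgctggtt
Slc7a11, chr3:50443652-50443680, minus strand: cTGATGCAAacctggagaatTTGCATCAt

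The core began 193 bases before the start of Chac1, 103 before that of Pycr1, 23 before that of Asns and 15 before that of Tars. Slc7a11, the cystine importer, held the core in both orientations, 66 and 47 bases before the start listed. Gars carried the core 30 bases before its start. In Iars, Yars and Trib3 the core lay just inside the transcript by the RefSeq start, beginning at base 8, 4 and 15. For Trib3 the core (chr2:152344039-152344046) lies upstream of the gene interval printed for it below. For Asns the core (chr6:7693225-7693232) is upstream of the RefSeq start but inside the annotated gene interval, chr6:7675169-7693254. Among the 10 carriers Chac1 and Trib3 were higher in knockout, Pycr1, Tars and Iars were lower, and Aars, Gars, Yars, Asns and Slc7a11 did not pass. No window was used for Cars, Hars, Lars, Nars, Rars, Vars, Wars, Slc7a5 and Slc1a5.

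Among the regulators the stress genes at the end of the pathway were higher in knockout, and Atf4 did not pass. Chac1 (chr2:119351229-119354381, plus strand), whose enzyme degrades glutathione and which is a known target of the ATF4, ATF3 and CHOP factors, was at 10.2, 9.83 and 8.24 CPM in knockout and at 4.47, 3.52 and 3.6 CPM in wild type. Each knockout library lay above each wild-type library, and the fold was 2.43 (95% interval 1.86 to 3.19, edgeR adjusted p = 0.00015). Ddit3 (chr10:127290774-127296288, plus strand) encodes CHOP, a partner of C/EBP proteins that restrains adipogenesis and promotes death under prolonged stress. It was at 42.2, 45.9 and 32.5 CPM in knockout and at 26.7, 27.9 and 28.4 CPM in wild type, again with no overlap. The fold was 1.45 (95% interval 1.2 to 1.75, edgeR adjusted p = 0.0042).

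Trib3 (chr2:152337422-152344032, minus strand), a pseudokinase that ATF4 and CHOP induce and that in turn restrains them, was at 33.6, 35.3 and 20.1 CPM in knockout and at 20.1, 18.8 and 16.7 CPM in wild type. Knockout replicates 1 and 2 stood above every wild-type library, while knockout replicate 3 met the highest wild-type value. The fold was 1.6 (95% interval 1.18 to 2.16, edgeR adjusted p = 0.019). The call ended without knockout replicate 1 (adjusted p = 0.0634) or 2 (0.0734), or without wild-type replicate 2 (0.054) or 3 (0.0626).

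Atf4 (chr15:80255184-80257541, plus strand) was at 171, 182 and 157 CPM in knockout and at 186, 179 and 179.6 CPM in wild type. The groups overlapped, and the fold of 0.938 had a 95% interval from 0.822 to 1.07 (edgeR adjusted p = 0.42). Atf5, a related factor linked to mitochondrial stress, was at 152, 161 and 120.2 CPM in knockout and at 171, 173 and 179 CPM in wild type. All 3 knockout values were below wild type, but it did not pass (fold 0.829, edgeR adjusted p = 0.063), and it passed without knockout replicate 2 (adjusted p = 0.0147). Exons of Atf5 overlap those of Nup62 on the other strand by 82 bases and those of Ddit3 overlap Mars by 68 bases, and counts there are uncertain because the strand setting is not given in the sources used here. Sesn2, which encodes a leucine sensor that restrains mTORC1, was at 58.1 ± 3.08 CPM in knockout libraries and 51.9 ± 5.55 CPM in wild type (SD, n = 3 each; edgeR adjusted p = 0.2). In all, 3 of the 6 regulators were higher and 0 lower, with a median log2 fold change of 0.35, and the share called, 50%, was near the 44.3% of all genes tested.

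The genes that set the input and the brake of this pathway were measured beside it. The lists of further genes, here and below, were chosen with earlier results of these data known. Their shares called therefore only describe the lists. Of 16 genes for the eIF2 kinases, eIF2 and its exchange factor, the Gcn2 cofactors and the eIF2 phosphatase, 4 were higher and 3 lower in knockout, and the 43.8% called was close to the 44.3% of all genes tested. Both regulatory subunits of the eIF2 phosphatase were higher: Ppp1r15a (GADD34), itself an ATF4 target, at 61.4 ± 5.15 against 37.5 ± 6.27 CPM, and the constitutive Ppp1r15b at 157 ± 1.56 against 99.4 ± 7.97 CPM, with edgeR adjusted p-values of 0.00057 and 9.1e-05. Eif2b4, of the exchange factor, was at 25.5 ± 4.57 against 17.2 ± 1.6 CPM (edgeR adjusted p = 0.006). Impact, an inhibitor of Gcn2, was at 70.9 ± 3.33 CPM in knockout libraries and 95.2 ± 0.706 CPM in wild type (edgeR adjusted p = 0.00096). Of the 4 kinase genes, Eif2ak3, which encodes PERK, was lower (log2 fold change -0.30, edgeR adjusted p = 0.02; 0.0654 without knockout replicate 1 and 0.0914 without wild-type replicate 2), and Eif2ak1, Eif2ak2 and Eif2ak4 did not pass, though Eif2ak4 did without knockout replicate 2 (edgeR adjusted p = 0.0247). The count of 3 lower genes fell to 1 without knockout replicate 1 or wild-type replicate 2.

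A list of 23 other genes commonly given as ATF4 targets, which shares Ppp1r15a, Gpt2, Xpot and several transporters with the other lists, had 9 genes higher and 7 lower, 69.6% called where 44.3% of all genes tested were, with a median log2 fold change of 0.10. The hormone gene Fgf21 (log2 fold change 3.81), the stress factor Atf3 (1.98) and the alanine aminotransferase Gpt2 (1.24) led the rises, with edgeR adjusted p-values of 1.1e-06, 6.6e-06 and 8.7e-06. Atf3 was at 10.2 ± 1.04 CPM in knockout libraries and 2.59 ± 0.261 CPM in wild type (SD, n = 3 each). The AP-1 repressor Jdp2 was lower, at 13.3 ± 0.284 against 23.7 ± 1.03 CPM, as were the transporters Slc6a9 (-1.05), Slc7a1 (-0.54) and Slc38a2 (-0.32) on the log2 scale. For Slc38a2 the edgeR adjusted p was 0.0574 without knockout replicate 1 and 0.053 without wild-type replicate 2. The count of 7 lower genes was 4 without knockout replicate 1 or wild-type replicate 1 or 2. Of 15 tested genes of the other arms of the unfolded protein response, 3 were higher and 8 lower (73.3% called, median log2 fold change -0.39). There the chaperone gene Dnajb9 was at 97.1 ± 4.39 CPM in knockout libraries and 53.3 ± 3.03 CPM in wild type. By contrast, Hsp90b1, Pdia6 and Manf were lower by 0.89, 0.97 and 0.78 on the log2 scale.

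**Figure D2:**
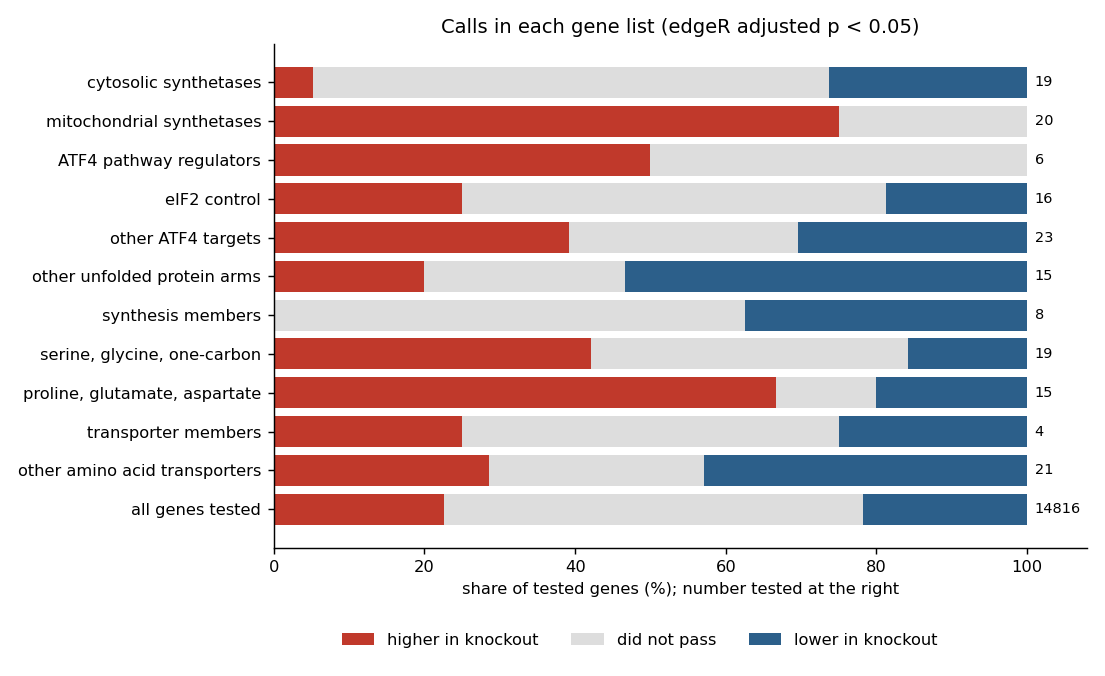
Share of tested genes called higher (left part), not passing (middle) and lower (right part) in knockout for each list, with the number of genes tested at the right. Cytosolic synthetases are mostly grey (13 of 19), and other ATF4 targets are split between higher (9) and lower (7). The list named mitochondrial synthetases, which also holds the amidotransferase genes Qrsl1, Gatb and Gatc, is mostly higher (15 of 20).

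The 19 cytosolic synthetases stayed close to the wild-type level. Their summed level was 1947 ± 117 CPM in knockout libraries and 2052 ± 95.7 CPM in wild type (SD, n = 3 each), a ratio of 0.949, and each of the 19 lay within 1.5-fold. In the test 1 was higher and 5 lower (31.6% called, against 44.3% of all genes tested), with a median log2 fold change of -0.09. The spread among them was small, from -0.32 for Rars to 0.52 for Wars.

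Wars (chr12:108860030-108894174, minus strand), the tryptophanyl-tRNA synthetase, which interferon gamma is also known to induce, was the gene that rose. It was at 94.2, 93.8 and 81.6 CPM in knockout and at 59.5, 64.4 and 63.6 CPM in wild type, so every knockout library exceeded every wild-type library. The fold was 1.44 (95% interval 1.26 to 1.64, edgeR adjusted p = 0.00052), and the call held under all 17 alternative settings.

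The genes that fell were Rars, Tars, Vars, Iars and Lars, for the arginyl-, threonyl-, valyl-, isoleucyl- and leucyl-tRNA synthetases. Tars (chr15:11382301-11399665, minus strand) was at 71.7, 71.9 and 67.8 CPM in knockout and at 93.3, 85.8 and 83.6 CPM in wild type, a fold of 0.804 (edgeR adjusted p = 0.008). Rars was at 56.8, 58.8 and 55.2 CPM in knockout and at 78.2, 70.7 and 64.6 CPM in wild type, a fold of 0.8 (edgeR adjusted p = 0.013). In both genes the groups were apart, and the bound of the 95% interval nearest to no change was 0.909 for Tars and 0.917 for Rars.

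Vars was at 53.7, 57.3 and 57 CPM in knockout and at 69, 71.9 and 64 CPM in wild type (fold 0.82, edgeR adjusted p = 0.015). Iars was at 101, 91.9 and 92.4 CPM in knockout and at 113, 112 and 116 CPM in wild type (fold 0.837, edgeR adjusted p = 0.021). Lars was at 76, 77.2 and 75.3 CPM in knockout and at 95.1, 94.4 and 83.6 CPM in wild type (fold 0.837, edgeR adjusted p = 0.025). The groups were apart in all 3 genes, yet these calls were sensitive to single libraries. The edgeR adjusted p was above 0.05 for Rars without wild-type replicate 1 (0.0601), for Vars without knockout replicate 1 (0.0775) or wild-type replicate 2 (0.079), for Iars without knockout replicate 3 (0.0503) or wild-type replicate 2 (0.0648) or 3 (0.0536), and for Lars without knockout replicate 1 (0.0857) or wild-type replicate 1 (0.0849) or 2 (0.107). The fall of Tars held in every alternative.

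The other 13 did not pass. Eprs, which joins the glutamyl and prolyl activities in 1 protein, was at 259, 256 and 235 CPM in knockout and at 289, 285 and 251 CPM in wild type (fold 0.909, 95% interval 0.788 to 1.05). Aars, Gars, Sars and Nars, which are widely used readouts of ATF4, had folds of 0.965, 0.942, 1.04 and 0.926. Exons of Aars share 1326 bases with Exosc6 on the same strand. Exosc6 had 0 counts in every library, and the counts of Aars over those bases are uncertain. Farsa and Farsb encode the catalytic and the other subunit of the phenylalanyl enzyme and had the same direction, at 28.5 ± 1.8 against 24 ± 0.64 CPM and at 45.3 ± 5.73 against 38.8 ± 5 CPM (edgeR adjusted p = 0.054 and 0.15), with the groups apart in Farsa only. Kars, Qars, Dars, Hars, Cars and Yars had folds between 0.908 and 1.11.

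The enzymes fall into the 2 structural classes of synthetases, and Eprs, which spans both, was put in class I. Of 9 class I genes 1 was higher and 4 lower (55.6% called, median log2 fold change -0.14). Of 10 class II genes 0 were higher and 1 lower (10% called, median -0.05). Over all genes tested 44.3% were called. The difference between the classes was not tested. Of 11 synthetases commonly listed as ATF4 targets 1 was higher and 3 lower (36.4% called, median -0.11). Of the other 8, 0 were higher and 2 lower (25% called, median -0.05).

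The methionyl enzyme gene Mars and the scaffold genes of the multi-synthetase complex, Aimp1, Aimp2 and Eef1e1, did not pass, with log2 fold changes of -0.09, -0.00, -0.19 and -0.11. Tarsl2, a paralog of Tars, was at 9.81 ± 1.36 CPM in knockout libraries and 5.52 ± 0.987 CPM in wild type, the direction opposite to Tars (edgeR adjusted p = 0.0035). Xpot, which exports tRNA from the nucleus, was at 77.9 ± 3.07 against 92.5 ± 5.22 CPM (edgeR adjusted p = 0.028). Its call ended without knockout replicate 1 (adjusted p = 0.081) or 2 (0.057) and without wild-type replicate 1 (0.0918) or 2 (0.104).

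Levels of different genes were compared as CPM per kilobase of the principal transcript. On that scale Gars was the highest synthetase, at 80.2 ± 14.4 in knockout and 85.1 ± 4.1 in wild type, followed by Nars at 75.7 ± 2.23 and 81.8 ± 2.65, which did not differ from Gars beyond the spread. Vars (13.5 ± 0.488 and 16.5 ± 0.969) and Farsa (15.6 ± 0.985 and 13.1 ± 0.351) were at the low end in knockout and wild type.

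**Figure D3:**
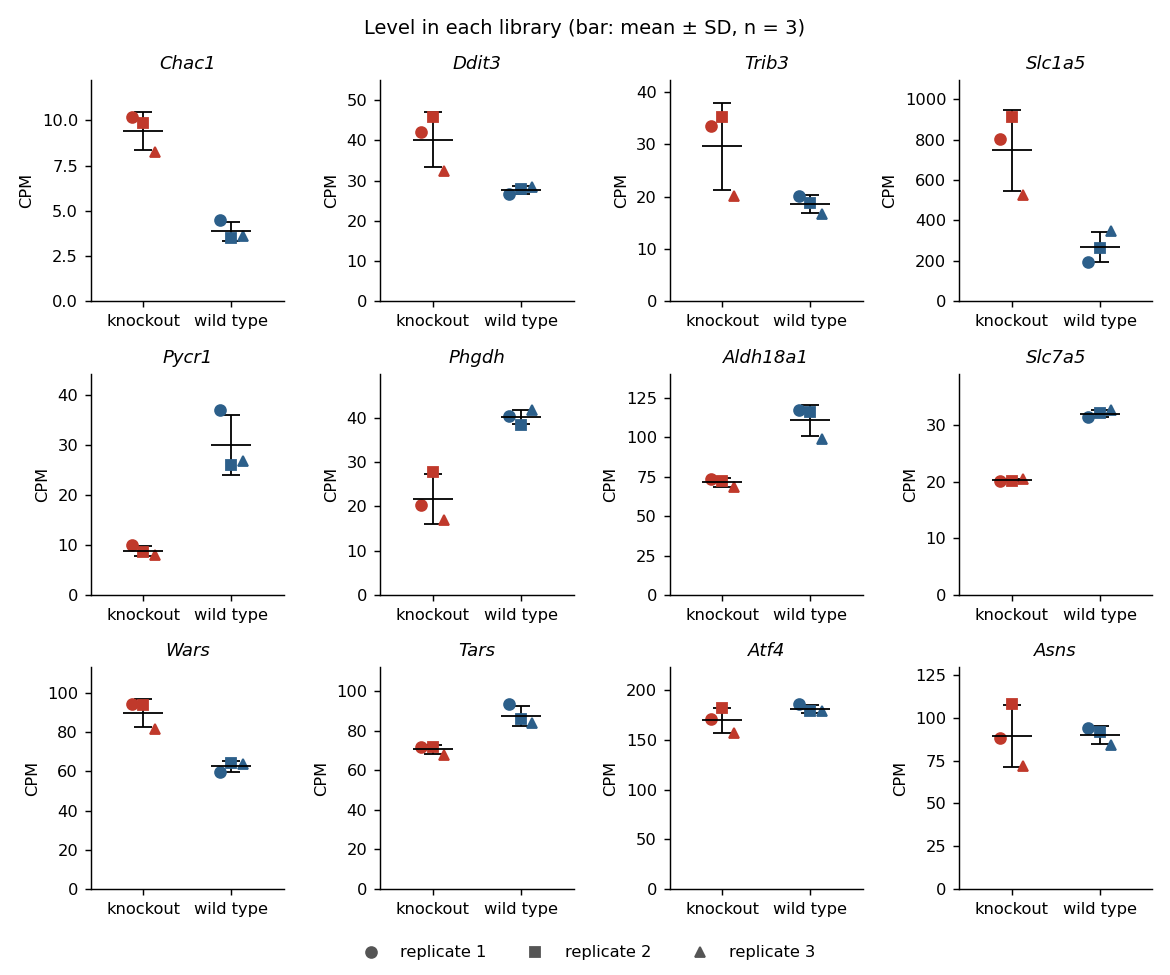
CPM of 12 of the 37 genes in each library (points, shaped by replicate), knockout left of wild type, with mean ± SD over 3 libraries. Chac1, Ddit3, Slc1a5 and Wars lie wholly above wild type, Pycr1, Phgdh, Aldh18a1, Slc7a5 and Tars wholly below, and Trib3, Atf4 and Asns overlap it.

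Mitochondria use a largely separate set of synthetases to load their own tRNAs, though Gars and Kars serve both compartments. Of 20 genes listed for mitochondria, 15 were higher in knockout and 0 lower (75% called and median log2 fold change 0.55, against 44.3% called, 22.6% higher and a median of 0.01 over all genes tested). The list includes Qrsl1, Gatb and Gatc, which encode an amidotransferase that acts on loaded tRNA and not synthetases, and which were each called higher. It was chosen with earlier results of these data known, so its share called only describes the list. Leaving out leucine, the mitochondrial gene had the higher log2 fold change in 15 of 16 pairs that serve the same amino acid, a difference that was not tested. Fars2, for phenylalanine, was at 24.1 ± 4.53 CPM in knockout libraries and 11.2 ± 0.11 CPM in wild type, without overlap (fold 2.15, edgeR adjusted p = 8.8e-05). Tars2 was at 29.2 ± 3.42 against 17.3 ± 0.932 CPM, Rars2 at 33.5 ± 2.7 against 21 ± 1.31 CPM, and Iars2 at 119 ± 3.96 against 83.4 ± 6.17 CPM, while the cytosolic genes for these 3 amino acids fell. Tryptophan was the exception, with Wars higher (log2 fold change 0.52) and Wars2 not passing (0.14, edgeR adjusted p = 0.51).

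The summed level of this mitochondrial list without Lars2, amidotransferase genes included, was set against the summed cytosolic synthetase level. The ratio was 0.215, 0.218 and 0.219 in knockout libraries 1 to 3, and 0.131, 0.138 and 0.15 in wild-type libraries 1 to 3. The ranges were apart, and transcripts of the mitochondrial genome moved the same way, with 2.29% to 2.48% of counts in knockout and 1.53% to 1.6% in wild type. Lars2 was left out because a single library set its value: it was at 75.4, 92.3 and 59.1 CPM in knockout and at 61.3, 380.2 and 61.9 CPM in wild type. The library with 380.2 CPM, wild-type replicate 2, also had the most ribosomal RNA, 0.143% of counts against 0.0203% to 0.0273% in the others, and the part of that RNA in the Lars2 count was not tested. The log2 fold change of Lars2 was -1.15 (edgeR adjusted p = 0.37) and 0.29 without that library (adjusted p = 0.201). Hars2 overlaps Hars on the other strand by 195 exon bases, and counts there are uncertain because the strand setting is not given.

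**Figure D4:**
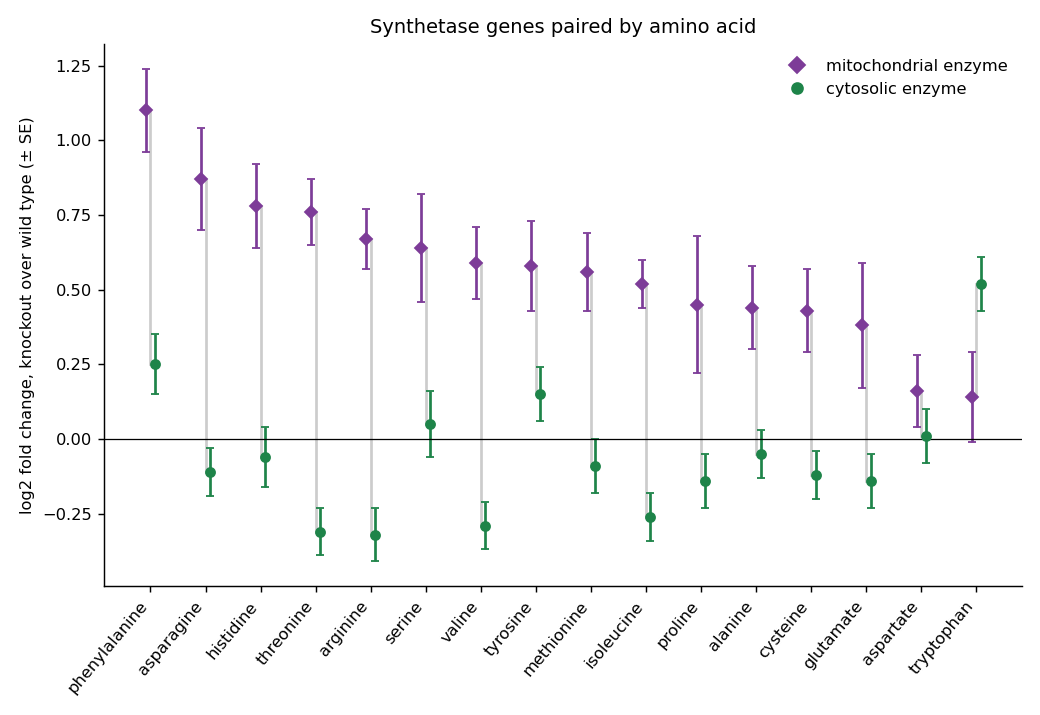
Log2 fold change (knockout over wild type, ± SE) of the mitochondrial (diamonds) and cytosolic (circles) synthetase gene for each of 16 amino acids. The mitochondrial gene lies above the cytosolic gene for each amino acid but tryptophan; Eprs stands for both glutamate and proline, Farsa for phenylalanine, and leucine is left out because of Lars2.

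Of the 8 biosynthetic genes 3 were lower in knockout, 0 were higher and 5 did not pass. That is 37.5% called, against 44.3% of all genes tested. The 3 that fell included both genes of the main route from glutamate to proline. Aldh18a1, also called P5CS, turns glutamate into the precursor of proline, and Pycr1 makes proline from that precursor in mitochondria. Pycr1 (chr11:120635712-120643769, minus strand) was at 9.95, 8.69 and 7.99 CPM in knockout and at 36.9, 26.1 and 26.9 CPM in wild type. The groups were far apart, with a fold of 0.296 (95% interval 0.234 to 0.375, edgeR adjusted p = 5.8e-06). Aldh18a1 (chr19:40550257-40588463, minus strand) was at 73.6, 72.6 and 68.4 CPM in knockout and at 117, 116 and 99.2 CPM in wild type. Its fold was 0.646 (95% interval 0.564 to 0.74, edgeR adjusted p = 0.00017).

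Neighbouring genes of proline metabolism were measured as well. Prodh, which starts proline oxidation, was at 6.55 ± 3.31 CPM in knockout libraries and 1.65 ± 1.09 CPM in wild type (edgeR adjusted p = 0.024). That call ended without knockout replicate 1 (adjusted p = 0.0525) or 2 (0.0939) and without wild-type replicate 2 (0.0639). Aldh4a1, the next step, was at 21.1 ± 3.62 against 14.4 ± 0.956 CPM (edgeR adjusted p = 0.0072). Oat, which links ornithine to the proline precursor, was lower, at 221 ± 19.1 against 296 ± 20.1 CPM (edgeR adjusted p = 0.0046). Pycrl, which encodes a cytosolic reductase of the same last step, did not pass (log2 fold change 0.21). Proline is abundant in collagen, and the collagen genes Col1a1 and Col3a1 in the progenitor and fibroblast marker list were lower too, with log2 fold changes of -1.24 and -1.27. Whether the fall of Pycr1 and Aldh18a1 goes with fewer collagen-making cells was not tested.

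Phgdh (chr3:98313170-98339990, minus strand), the entry enzyme of serine synthesis, was at 20.3, 27.8 and 16.9 CPM in knockout and at 40.3, 38.4 and 41.6 CPM in wild type. The fold was 0.539 (95% interval 0.425 to 0.684, edgeR adjusted p = 0.0009). Phgdh has 14 annotated pseudogene copies at 90.619% to 98.748% identity, which took few counts in the table (25 over all libraries in Gm7901, the most counted, against 3268 in Phgdh), and reads matching several copies may have been discarded or assigned to either. The later enzymes of the same route did not follow. Psat1 was at 112, 130.2 and 96.5 CPM in knockout and at 114, 116 and 114 CPM in wild type (fold 0.982, 95% interval 0.837 to 1.15). Psph was at 14.5 ± 1.27 against 14.3 ± 0.936 CPM, and its exons share 452 bases with Cct6a on the other strand.

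Asns, the asparagine synthetase and a standard readout of ATF4, was at 88.5, 108 and 71.8 CPM in knockout and at 94.2, 91.6 and 83.9 CPM in wild type. Knockout libraries spread on both sides of wild type, and the fold of 0.995 had a 95% interval from 0.815 to 1.22 (edgeR adjusted p = 0.97). Shmt2 and Mthfd2, the mitochondrial enzymes that turn serine into glycine and formate, were at 84.4 ± 5.86 against 80.6 ± 2.31 CPM and at 30.3 ± 4.89 against 27.5 ± 3.38 CPM, with edgeR adjusted p-values of 0.55 and 0.44.

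Of 19 further genes of serine, glycine, methionine and folate metabolism, 8 were higher and 3 lower (57.9% called, against 44.3% of all genes tested, median log2 fold change 0.16). The rises were led by Aldh1l1, which burns the formyl folate of the cytosol, at 186 ± 22.6 against 45.8 ± 3.52 CPM, and by the glycine cleavage genes Gldc (24.3 ± 2.07 against 8.04 ± 2.48 CPM) and Dld (312 ± 53.8 against 118 ± 7.7 CPM), of which Dld also serves pyruvate dehydrogenase. Sfxn1, which carries serine into mitochondria, was at 194 ± 24.7 against 96.3 ± 4.72 CPM. Each of these 4 passed in edgeR, with adjusted p-values between 3.6e-07 and 7.8e-05. The lower genes included Tyms, which makes thymidylate for DNA synthesis, with a log2 fold change of -0.90. The count of lower genes was 1 without knockout replicate 1 or wild-type replicate 1 or 2.

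Of 15 genes around glutamate, glutamine, alanine, aspartate and proline, 10 were higher and 3 lower (86.7% called, against 44.3% of all genes tested, median log2 fold change 0.55). This list, too, was chosen with earlier results of these data known. The aminotransferase genes Gpt2 (64.2 ± 9.45 against 27.2 ± 1.91 CPM), Gpt (33.9 ± 5.92 against 8.28 ± 2.69 CPM) and Got2 (220 ± 19.4 against 124 ± 5.07 CPM) were higher. Glul, which makes glutamine, was at 865, 969 and 836 CPM in knockout and at 271, 356 and 469 CPM in wild type. The groups were apart (fold 2.44, edgeR adjusted p = 0.00021). Aspg, an asparaginase, was higher (log2 fold change 2.84), with Asns not passing. Ass1, which joins citrulline and aspartate in arginine synthesis, was at 59 ± 11.9 against 189 ± 36.7 CPM (edgeR adjusted p = 5.2e-05).

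Among the 4 transporters 1 was higher and 1 lower (50% called, against 44.3% of all genes tested). Slc1a5 (chr7:16781340-16798274, plus strand) encodes ASCT2, which exchanges glutamine and other neutral amino acids, and was the largest rise of the module. It was at 801, 913 and 526 CPM in knockout and at 196, 265 and 346 CPM in wild type. Every knockout library was above wild type, with knockout replicate 3 the nearest, and the fold was 2.78 (95% interval 1.84 to 4.19, edgeR adjusted p = 0.0023).

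Slc7a5 (chr8:121881150-121907694, minus strand) encodes LAT1, the importer of leucine and other large neutral amino acids, and Slc3a2 encodes the heavy chain to which LAT1 and the cystine importer bind. Slc7a5 was at 20.2, 20.2 and 20.5 CPM in knockout and at 31.4, 32.1 and 32.6 CPM in wild type. The replicates of each genotype were nearly equal, and the fold was 0.633 (95% interval 0.552 to 0.727, edgeR adjusted p = 0.00014). Slc3a2 was at 88.8, 92.2 and 84.7 CPM in knockout and at 84.5, 83.6 and 87.3 CPM in wild type (fold 1.04, 95% interval 0.925 to 1.17). Slc7a11, the cystine importer, was the lowest of the 4 per kilobase (0.733 in knockout and 0.711 in wild type). It was at 5.66, 6.25 and 8.38 CPM in knockout and at 7.01, 7.97 and 4.69 CPM in wild type, which overlap widely (fold 1.04, 95% interval 0.735 to 1.46).

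Of 21 tested genes of other amino acid transporters, 6 were higher and 9 lower (71.4% called, against 44.3% of all genes tested, median log2 fold change -0.32). The rises included Slc7a10, which carries small neutral amino acids and is known in white adipocytes, at 14.3 ± 2.28 against 0.798 ± 0.321 CPM, and the glutamate importer Slc1a3, at 36.8 ± 3.24 against 10.5 ± 0.202 CPM. The falls included Slc38a4, at 0.891 ± 0.0554 against 6.14 ± 1.14 CPM, and the cationic amino acid importer Slc7a2, at 51.9 ± 5.1 against 91.5 ± 9.84 CPM. Each of these 4 passed in edgeR, with adjusted p-values between 6.9e-07 and 8.3e-05.

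The knockout libraries differed from each other over the module. Of the 37 genes, knockout replicate 2 was the highest knockout library for 27 (73% of members, against 37.1% of all genes tested) and knockout replicate 3 the lowest for 27 (73% against 37.2%). All 8 biosynthetic genes and 5 of the 6 regulators were lowest in knockout replicate 3. That library also had the highest summed macrophage level, 816 CPM against 302 and 304 CPM in knockout replicates 1 and 2, and the part of this in the order was not tested. In wild type, replicate 3 was the lowest for 21 of the 37 genes (56.8% against 37.5%).

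**Figure D5:**
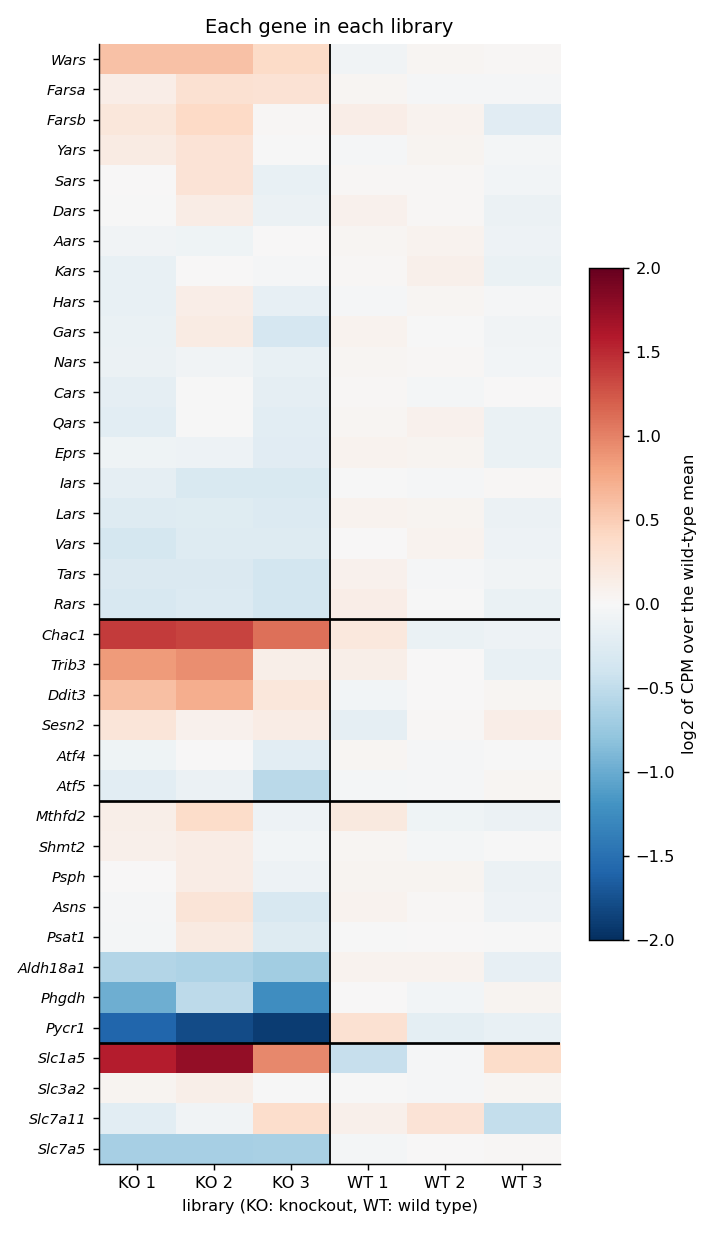
Log2 of each gene's CPM over its wild-type mean (colour) in the 3 knockout libraries (left) and the 3 wild-type libraries (right), with genes grouped by role and sorted by fold change within a role. Most synthetase rows are pale, knockout replicate 3 is the lowest knockout library for 27 of 37 genes, and Chac1, Slc1a5 and Pycr1 stand out.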

How the data were processed

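The authors deposited counts, whole numbers for each Ensembl gene with no scaling. STAR, featureCounts, mm10 and GRCm38 are named per the submitters' processing notes. Tool versions, annotation, strand setting and the treatment of multiply matching reads: not given in the sources used here. Libraries came from RNA freed of ribosomal RNA, per the labels' protocols. Columns were matched to samples by name. GENCODE M21 (GRCm38) held 53706 of the 53801 identifiers. Synthetase symbols with and without a final 1 were treated as equal, and of the 2 Ddit3 identifiers the counted one (ENSMUSG00000025408) was used.

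The test was that of edgeR 4.0.16 (R 4.3.3): filterByExpr (minimum count 10, minimum total 15; 14816 genes kept), TMM factors (0.975 to 1.02), robust legacy quasi-likelihood F test, 2-sided, genotype as the single term, Benjamini-Hochberg adjustment over all genes tested at 0.05. The common biological coefficient of variation was 0.123. CPM are relative to TMM-scaled totals of the genes kept, ± is SD with n = 3 unless called SE, and 95% intervals of folds come from the fit. Floors of 3 counts cover counting error only. The series calls the replicates biological; p-values do not cover a difference in isolation or culture that coincided with genotype. Pseudogene copies were found with BLAST+ 2.17.0 (identity at or above 90%, covering 50% or more of its length).

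The members and lists were chosen with earlier results of these data known. The genes named were all members, Ythdf1, and from each list up to 4 passing genes by smallest p (the 2 of highest level where none passed); Lars2, Glul, Aspg, Gpt, Prodh, Aldh4a1, Oat, Pycrl, Tyms, Eif2ak1, Eif2ak2, Eif2ak3, Eif2ak4, Slc6a9, Slc7a1, Slc38a2, Hars2, Wars2, Mars, Aimp1, Aimp2, Eef1e1, Col1a1 and Col3a1 are further names, picked with their values in view. Settings tried beside it were DESeq2 1.42.0, limma-voom 3.58.1 with quality weights, RLE or upper-quartile factors in edgeR, no filter, 1 CPM in 3 libraries, a replicate block, the library name suffix (L0 or L1) as a term, protein-coding genes, removal of the 50 most abundant genes, edgeR without the legacy setting, and each replicate left out. A few genes and sequences are not reported here.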

Additional observations from a re-analysis of the deposited data

How the results depend on the processing

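Over 17 alternatives and the 93 genes recomputed under them, no called gene changed direction, and no scaling moved the median of all genes by more than 0.055 on the log2 scale. The 3 lower biosynthetic genes, Slc1a5, Slc7a5, Chac1, Ddit3, Wars and Tars kept their calls under each alternative. Over 37 members the call changed in 20 values, 13 lost and 7 gained; over all 93 genes, 31 values that passed neither way changed sign. Beside the losses given above, Farsa passed among protein-coding genes (adjusted p = 0.0453), Farsb without knockout replicate 3 (0.0452), Qars with limma-voom (0.0408), and Atf5 with upper-quartile factors (0.0306), limma-voom (0.0287) and no filter (0.0351). Eif2ak4 passed with limma-voom (0.0323), and Xpot did not with no filter (0.0556).

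The count of synthetases higher was 2 among protein-coding genes and 1 to 2 with 1 library left out; that of synthetases lower was 2 to 5 with 1 library left out (3 without knockout replicate 1 or wild-type replicate 1, 2 without wild-type replicate 2). Regulators lower were 1, in place of 0, with upper-quartile factors, with limma-voom and with no filter, and 0 to 1 with 1 library left out. With 1 library left out, lower genes were 0 to 1 for the complex, Mars, Tarsl2 and Xpot list, 1 to 3 for the eIF2 list, 4 to 5 for other ATF4 targets and 1 to 3 for serine, glycine and folate genes. With no filter the complex list had 0 lower and other ATF4 targets had 4.

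With 1 library left out, the count of genes higher in knockout was 2741 to 3395 and that of genes lower in knockout 2535 to 3279. For each gene tested, log2 CPM was also taken as a deviation from its genotype mean. Between same-numbered libraries these deviations had correlations of -0.126, 0.0117 and -0.143. Between libraries of different number the correlations ran from -0.0516 to 0.153. Within a genotype the deviations sum to 0, so these correlations are not independent of each other. Whether the libraries were prepared in pairs was not settled by them. With the replicate block 3136 genes were higher in knockout and 2993 lower, and the calls of the members did not change. Xpot (edgeR adjusted p = 0.0574) and Prodh (0.0807) were among the calls lost. That left 0 lower in the complex list, 5 lower among other ATF4 targets, 2 lower in the serine, glycine and folate list and 9 higher in the proline, glutamate and aspartate list. The cause of these shifts was not tested.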
